A study of Mus musculus with 48 samples.

Results

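The genes described here are 9 enzymes and transporters of arginine, creatine and ornithine metabolism in the mouse kidney: Ass1, Asl, Gatm, Arg2, Agmat, Oat, Slc6a8, Ckb and Ddah1. They were taken by name from the 12423 genes listed in both RNA-seq and RPF-seq (sequencing of ribosome-protected mRNA fragments), and all 9 were present in both assays and passed the expression minimum. The data came from 24 pools of kidney lysate, collected at 12 timepoints 2 h apart with 2 replicate pools each, and each pool gave 1 RNA-seq and 1 RPF-seq library. Every pool combined 2 male C57BL/6JRj mice aged 11 to 12 weeks, without a transgene or an experimental drug. They were kept under 12 h of light and 12 h of dark, with zeitgeber time (ZT) counted from lights-on. Per the study's methods, all mice had free access to food and water and were put under isoflurane before they were killed. All groups share genotype and housing, so the timepoint is the only labelled difference between them, and whole kidney contains every nephron segment together with vessels and blood.

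The kidney is the main site at which circulating citrulline is turned into arginine. Argininosuccinate synthase (Ass1) and argininosuccinate lyase (Asl) carry out this conversion in the proximal tubule. Arginine then has several fates: Gatm joins its amidino group to glycine, the first step of creatine synthesis, Arg2 is the mitochondrial arginase that releases ornithine and urea, and Oat is the mitochondrial aminotransferase that passes ornithine on towards glutamate and proline. Agmat is annotated as the hydrolase of agmatine, the decarboxylation product of arginine. Slc6a8 carries creatine across the plasma membrane, Ckb is the cytosolic brain-type creatine kinase, and Ddah1 breaks down asymmetric dimethylarginine, an endogenous inhibitor of nitric oxide synthases.

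The 9 genes lie on 7 chromosomes of GRCm38. Ass1 (ENSMUSG00000076441, chr2:31470207-31520672, plus strand) and Gatm (ENSMUSG00000027199, chr2:122594467-122611303, minus strand) are both on chromosome 2. Arg2 (ENSMUSG00000021125, chr12:79130777-79156301, plus strand) and Ckb (ENSMUSG00000001270, chr12:111669361-111672338, minus strand) are both on chromosome 12. Asl is at chr5:130011258-130029247 (minus strand), Agmat at chr4:141746672-141759263 (plus), Oat at chr7:132557478-132576398 (minus), Slc6a8 at chrX:73673150-73682502 (plus) and Ddah1 at chr3:145758675-145894277 (plus). The RPKM values (reads per kilobase, scaled to the size of the library) were given per gene over the coding exons, and the coding length that the values imply equalled the annotated one to the base for 8 of the 9. For Slc6a8 it was 1927 nt against 1905 nt in the principal transcript.

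The surroundings of the start codon, where footprints on the coding sequence begin, are shown because the 9 genes differed widely in footprints per transcript. Each line runs from 9 bases before the start codon to 3 bases after it, read from the principal GENCODE vM21 transcript, with the ATG in capitals.
Arg2: ctgccaatcATGttc
Asl: ccgcccaacATGgca
Gatm: gacggggcgATGcta
Oat: acccacacgATGctt
Ddah1: gcgcgaaccATGgcc
Agmat: ataggcggcATGctg
Ckb: gccgccgccATGccc
Ass1: caagacaagATGtcc
Slc6a8: gctggggccATGgcg
The lines are in the order of translation efficiency, from Arg2, the highest, to Slc6a8, the lowest. The base 3 positions before the ATG was a purine in all 9, an A in Arg2, Asl, Oat, Ddah1 and Ass1 and a G in the others. Ass1 was the only member whose principal 5′ leader held an upstream ATG. The Slc6a8 leader was the shortest, at 61 nt, and that of Ass1 the longest, at 202 nt. The part of the start surroundings or of the leader in translation efficiency was not tested.

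Of the promoters, those of Gatm and Ckb, the 2 members with a rhythmic RNA by the cosine fit below, are given. They are the 250 bases upstream of the RefSeq start site on GRCm38.p6, both on the minus strand, at chr2:122611278-122611527 for Gatm and chr12:111672339-111672588 for Ckb. Capitals mark matches, on either strand, to CACGTG (the E-box bound by the CLOCK:BMAL1 activator), TTANGTAA (the D-box), AGGTCA (the core of ROR and REV-ERB elements), TATAAA and CCAAT.
Gatm: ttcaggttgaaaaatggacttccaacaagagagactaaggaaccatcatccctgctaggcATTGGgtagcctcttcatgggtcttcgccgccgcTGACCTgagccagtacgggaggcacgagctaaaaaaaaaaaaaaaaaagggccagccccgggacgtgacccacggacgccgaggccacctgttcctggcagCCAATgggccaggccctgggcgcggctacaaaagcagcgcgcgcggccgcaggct
Ckb: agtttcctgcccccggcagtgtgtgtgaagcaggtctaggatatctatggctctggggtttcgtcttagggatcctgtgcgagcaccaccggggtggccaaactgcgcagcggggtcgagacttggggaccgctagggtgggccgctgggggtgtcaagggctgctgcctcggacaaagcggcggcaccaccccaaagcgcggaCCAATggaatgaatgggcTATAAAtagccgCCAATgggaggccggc
The Ckb window held TATAAA at position -28 from the start site and CCAAT at -46 and -16. The Gatm window held AGGTCA, on the other strand, at -156, and CCAAT at -190, also on the other strand, and at -55. Among the 32851 RefSeq windows of this length, 12.4% held TATAAA, 33.8% CCAAT, 6.02% CACGTG and 2.06% TTANGTAA, and 4607 held AGGTCA. Promoter windows were also read for Ass1, Ddah1, Agmat and Oat, among which Ass1 held CACGTG at position -36. A match is a description of letters only.

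Whole reads could be recovered from the RPKM values, which gave 8587410 to 28812375 coding reads per RNA-seq library and 14667259 to 31840145 per RPF-seq library. The median depth was 15658788 reads in RNA-seq at ZT00 to ZT10 and 11540000 at ZT12 to ZT22. In RPF-seq it was 23970477 and 19127762 reads. The part of these differences in the results below was not tested. The proximal tubule markers were abundant throughout, with a summed level of 4342 to 5209 RPKM for 5 of 5 markers of the convoluted part in RNA-seq and 1632 to 2243 RPKM for 5 of 5 markers of the straight part. Libraries of 2 timepoints stood apart. At ZT10 the replicates disagreed for Ass1 and Gatm. The sum of 4 liver markers was 371.6 RPKM in replicate 1 and 125.2 RPKM in replicate 2. It varied widely in general, from 121.2 to 461.0 RPKM over all RNA-seq libraries. At ZT16 both pools were rich in red cell transcripts (4 genes, 373.2 and 326.4 RPKM against a median of 92.2 over all libraries). Results that rest on these pools are given with and without them.

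Expression levels, which can be compared between genes because RPKM is per length, spanned more than 2 orders of magnitude. Gatm was the most abundant member, with 499.2 RPKM in the lowest RNA-seq library, a median of 762.9 and 888.8 in the highest, and 877.9, 1248 and 1496 RPKM in RPF-seq. Its mean lay at the 99.1th percentile of the 11863 genes tested in both assays. Ass1 followed with 249.5, 379.8 and 568.4 RPKM in RNA-seq, with footprints at 232.6, 361.4 and 508.5 RPKM. Ddah1 (184.3, 211.7 and 240.8 RPKM), Asl (144.0, 189.2 and 230.4), Oat (157.4, 176.4 and 219.9), Ckb (88.3, 152.1 and 199.9) and Slc6a8 (88.7, 103.4 and 116.9) came next in RNA-seq. Their ranges overlapped from each gene to the next.

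Arg2 and Agmat were far lower. Arg2 had 2.49, 3.88 and 7.68 RPKM in RNA-seq and 4.96, 7.004 and 15.5 RPKM in footprints, and Agmat had 1.51, 2.26 and 3.36 RPKM and 0.838, 2.69 and 4.69 RPKM. Behind these values stood 32 to 157 reads per RNA-seq library for Arg2 and 16 to 93 for Agmat, so that counting error alone was 11.9% and 16.1% at the median. For the other members it was at most 2.77% at the median in either assay. Intervals of this kind cover counting error only.

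Neighbours in the order of mean RNA level (Gatm, Ass1, Ddah1, Asl, Oat, Ckb, Slc6a8, Arg2, Agmat) were compared within pools by a two-sided sign-flip permutation test with 100000 resamples, adjusted over the 8 pairs. Asl and Oat could not be told apart: Asl was higher by 0.09 ± 0.32 on the log2 scale (SD, n = 24 pools), in 14 of 24 pools, with a permutation adjusted p = 0.17. Ddah1 exceeded Asl by 0.16 ± 0.23 in 17 of 24 pools (permutation adjusted p = 0.00441). The other 6 pairs each had a permutation adjusted p = 2.67e-05, from p = 2e-05, the smallest that these permutations can give. In RPF-seq the order was Gatm, Ass1, Asl, Oat, Ddah1, Ckb, Slc6a8, Arg2, Agmat, and all 8 neighbouring pairs differed. The narrowest of these steps was Asl over Oat, by 0.12 ± 0.24 in 17 of 24 pools (permutation adjusted p = 0.0199). With either replicate number left out and the order taken anew, 6 to 7 of the 8 neighbouring pairs differed in each assay.

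**Figure D1:**
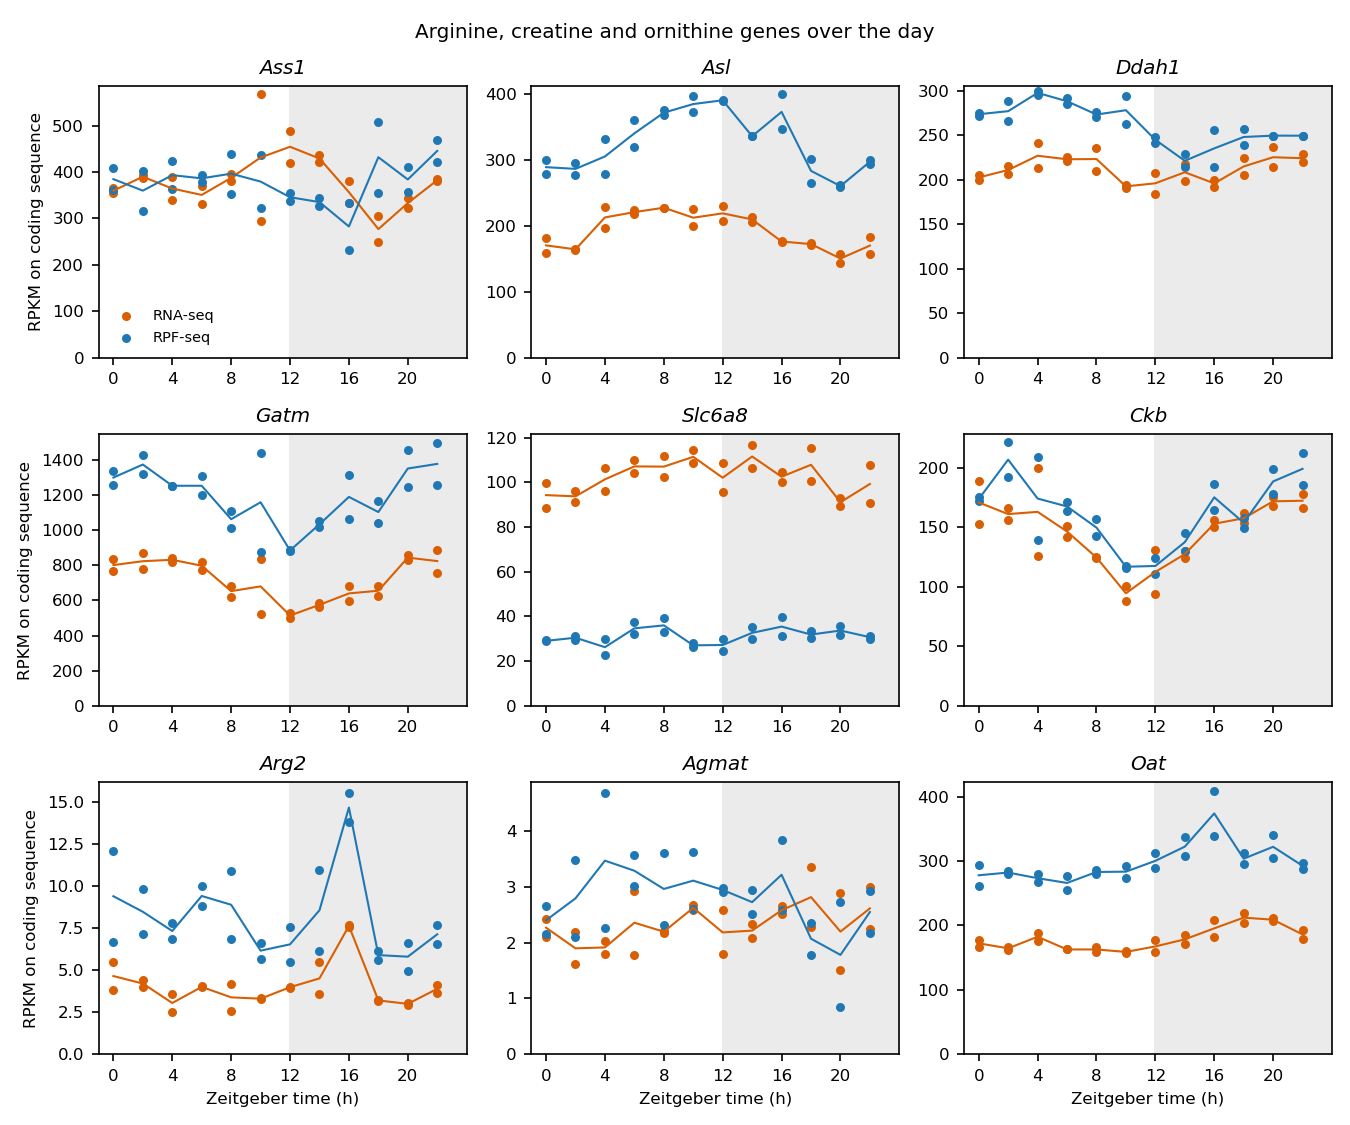
RPKM on the coding sequence (y axis, linear from 0, separate for each gene) against zeitgeber time in hours (x axis) for the 9 genes. Each point is 1 pool in RNA-seq (orange) or RPF-seq (blue), lines join the mean of the 2 pools at each timepoint and grey marks the dark period. Ckb is lowest at ZT10, Arg2 is highest at ZT16 in both assays, and Slc6a8 is the only gene whose footprints lie well below its RNA.

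Whether the time of day moved these genes was tested with a 24-h cosine fitted to log2(RPKM + 0.1) across all 11863 genes by limma. A 24-h component means an adjusted p (FDR) under 0.05, and rhythmic means that the fitted peak-to-trough fold was also at least 1.5. In RNA-seq 5 of the 9 members had a 24-h component (Ckb, Gatm, Asl, Oat and Slc6a8), against 48.6% of all genes, and 2 of them, Ckb and Gatm, were rhythmic, against 10.2% of all genes. In RPF-seq 5 of 9 had a component (Ckb, Gatm, Asl, Oat and Ddah1), against 30.9% of all genes, and Ckb was rhythmic, against 7.58%. The members' median fold was 1.25 in both assays, beside 1.21 and 1.18 for all genes, so most of the members changed little over the day. None of the 5 calls in RPF-seq was kept without replicate 1, which leaves 12 libraries, with limma adjusted p from 0.0627 for Asl to 0.257 for Gatm. The folds were then 1.42 for Asl, 1.31 for Oat, 1.29 for Ddah1, 1.32 for Gatm and 1.49 for Ckb, and over all genes the calls dropped from 3663 to 460. The Oat call was also lost without replicate 2 (limma adjusted p = 0.0711).

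A second test treated the 12 timepoints as separate levels, which also catches profiles other than a cosine. It called 5 of 9 members in RNA-seq (Ckb, Gatm, Asl, Oat and Arg2), against 31.0% of all genes. In RPF-seq it called 4 of 9 (Ckb, Asl, Ddah1 and Oat), against 12.8%. Leaving out 1 pool at a time, which assumes that the lone remaining pool of that timepoint varies like the others, gave 4 to 6 members in RNA-seq and 2 to 4 in RPF-seq. The RPF-seq count fell to 2, with Ddah1 and Oat lost, without either pool of ZT06, replicate 1 of ZT08, replicate 1 of ZT12 or replicate 2 of ZT14. Without replicate 1 of ZT14 both were lost as well, but Arg2 was called (limma adjusted p = 0.044).

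Of the 2 enzymes that make arginine, Asl followed the time of day and Ass1 did not pass the 24-h test. Asl RNA was high from ZT04 to ZT14, into the early dark period, and low from ZT16 to ZT02. At ZT04 to ZT08 the 6 RNA-seq libraries had 196.3 RPKM at the lowest, 225.1 at the median and 228.5 at the highest, and at ZT22 to ZT02 they had 157.3, 164.0 and 182.2. The ranges of these windows did not overlap. The fitted fold was 1.43 (log2 0.52 ± 0.06 SE), with a peak at 9.03 ± 0.46 h (limma adjusted p = 1.72e-06).

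Asl footprints peaked at 10.6 ± 0.52 h with a fold of 1.40 (limma adjusted p = 2.43e-05). They had 335.3, 380.9 and 395.6 RPKM at ZT10 to ZT14 and 276.7, 294.3 and 300.1 at ZT22 to ZT02, again without overlap. At ZT16 to ZT20 they ran from 258.2 to 398.7 RPKM, which overlapped both. Both ZT16 libraries were also high in RPF-seq, at 345.7 and 398.7 RPKM, while the RNA of the same pools had already dropped to 175.5 and 176.3 RPKM. The call in RNA-seq held in all 38 alternatives.

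Ass1 behaved differently. Its RNA had 294.0, 429.1 and 568.4 RPKM at ZT10 to ZT14 and 249.5, 327.8 and 379.8 at ZT16 to ZT20, and the ranges overlapped because the ZT10 pools held both 294.0 and 568.4 RPKM. The cosine gave a fold of 1.21 (limma adjusted p = 0.149) in RNA-seq and 1.18 (adjusted p = 0.271) in RPF-seq, where it was called without replicate 2 (adjusted p = 0.0471, fold 1.31). The test over timepoints gave an adjusted p = 0.188 in RNA-seq. Without both ZT10 pools it was 0.00312, without replicate 1 of ZT10 it was 0.000695 and without replicate 2 it was 0.00239, so the disagreement between these 2 pools decided the call. Without replicate 1 of ZT10 the cosine was also called (limma adjusted p = 0.0336, fold 1.29). With a 12-h harmonic added, the joint test of the 24-h and 12-h terms was called (limma adjusted p = 0.0153). The fold of the combined curve was then 1.48. A pseudogene of Ass1, Ass-ps1, is annotated in RefSeq, and how its reads were assigned is not given in the sources used here.

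For Ass1 the ratio of RPF to RNA RPKM was 0.876 and 0.698 in the ZT16 pools and 1.67 and 1.42 in the ZT18 pools, which were the highest of all 24. At ZT10 to ZT14 it was 0.725 at the lowest, 0.785 at the median and 1.10 at the highest. The timepoint test did not call this ratio (limma adjusted p = 0.0857), nor did the 24-h cosine (fold 1.36, adjusted p = 0.119). With a 12-h harmonic added, the fold of the combined curve was 1.79. The joint test of the 24-h and 12-h terms gave a limma adjusted p = 0.0175.

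Ddah1, which clears an inhibitor of nitric oxide synthesis, had a 24-h component in RPF-seq. Its footprints had 271.0, 288.3 and 299.6 RPKM at ZT04 to ZT08 and 214.5, 249.6 and 257.0 at ZT16 to ZT20, without overlap. At ZT10 to ZT14 they ran from 214.0 to 294.1 RPKM, which overlapped both. The fold was 1.25, with a peak at 4.30 ± 0.59 h (limma adjusted p = 0.000117). Ddah1 RNA had 210.3, 223.0 and 240.8 RPKM and 191.7, 209.7 and 236.5 RPKM in the same windows, which overlapped. The RNA fold was 1.09 (limma adjusted p = 0.165), with a called component after quantile normalisation (adjusted p = 0.0359). The difference between the assays was not called (limma adjusted p = 0.0564 for the ratio), but was called without replicate 1 of ZT08 (0.0438), replicate 2 of ZT12 (0.0483) or replicate 1 of ZT16 (0.0407).

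Among the creatine genes, the first enzyme of synthesis and the brain-type kinase were both high around lights-on. Gatm RNA had 758.5, 805.4 and 888.8 RPKM at ZT22 to ZT02 and 499.2, 546.5 and 834.4 RPKM at ZT10 to ZT14. These windows overlapped through a single pool, replicate 2 of ZT10, since replicate 1 had 525.2 RPKM and replicate 2 had 834.4. The fitted fold was 1.51 (log2 0.59 ± 0.09 SE), with a peak at 0.856 ± 0.57 h (limma adjusted p = 3.39e-05).

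The same ZT10 pool stood out in Gatm footprints, with 877.9 RPKM in replicate 1 and 1439 in replicate 2. Over ZT22 to ZT02 the footprints had 1257, 1329 and 1496 RPKM, and the fold was 1.37 with a peak at 0.0554 ± 0.78 h (limma adjusted p = 0.00213). Over ZT10 to ZT14 they had 877.9, 952.8 and 1439 RPKM. Without both ZT10 pools the RPF fold was 1.42. The timepoint test did not call Gatm in RPF-seq with all pools (limma adjusted p = 0.121) and called it without both ZT10 pools (0.0143), without replicate 1 of ZT10 (0.0129) or without replicate 2 (0.00878). The Gatm RNA fold lay just above the threshold, and leaving out single pools moved it between 1.47 and 1.58. It fell below 1.5 without any of 7 single pools (replicate 1 of ZT10, both of ZT12, replicate 1 of ZT14, both of ZT20 and replicate 2 of ZT22), without replicate 1 altogether (1.39, limma adjusted p = 0.104), after quantile normalisation (1.47) and with median-of-ratios scaling (1.49).

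Ckb had the largest fitted fold of the 9 in RNA-seq. Its RNA had 153.1, 166.5 and 188.7 RPKM at ZT22 to ZT02 and 88.3, 112.7 and 131.2 RPKM at ZT10 to ZT14, and the windows did not overlap. The lowest values were the 2 ZT10 pools and replicate 2 of ZT12, at 88.3, 100.8 and 93.9 RPKM. The highest single library was replicate 1 of ZT04, at 199.9 RPKM, while replicate 2 of that timepoint had 126.1. The fold was 1.61 (log2 0.68 ± 0.10 SE), with a peak at 22.6 ± 0.56 h (limma adjusted p = 2.65e-05).

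Ckb footprints followed. They had 171.8, 189.0 and 221.6 RPKM at ZT22 to ZT02 and 110.6, 121.2 and 144.9 RPKM at ZT10 to ZT14, without overlap, with a fold of 1.55 and a peak at 23.4 ± 0.58 h (limma adjusted p = 0.0001). Without both ZT10 pools Ckb kept a 24-h component, but its fold was 1.48 in RNA-seq and 1.48 in RPF-seq, under the threshold. Without replicate 1 the RPF fold was 1.49 (limma adjusted p = 0.0925). RefSeq lists 2 pseudogenes of Ckb, and how their reads were assigned is not given in the sources used here.

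The creatine transporter Slc6a8 had a small 24-h component in RNA-seq only. It had 95.7, 108.6 and 116.9 RPKM at ZT10 to ZT14 and 88.7, 93.8 and 108.0 RPKM at ZT22 to ZT02, with overlap. The fold was 1.15, with a peak at 11.1 ± 1.1 h (limma adjusted p = 0.0191). This call was lost without both ZT10 pools (limma adjusted p = 0.0503) and without replicate 1 (limma adjusted p = 0.466). With a 12-h harmonic added, the joint test of the 24-h and 12-h terms was not called (limma adjusted p = 0.0616). Slc6a8 footprints had 22.7, 30.7 and 39.6 RPKM over all 24 libraries, with a fold of 1.08 (limma adjusted p = 0.697).

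The genes most like the rhythmic members over the 24 libraries of an assay, by Pearson r of log2(RPKM + 0.1), included a core clock gene. For Ckb RNA they were Arntl (r = 0.867), which encodes the clock activator BMAL1 and ran from 0.615 to 23.9 RPKM, and Igsf11 (r = 0.867), a cell adhesion molecule, which ran from 53.3 to 95.4 RPKM. For Ckb footprints they were Avpr1a (r = 0.932), a vasopressin receptor, and Npnt (r = 0.919), an extracellular matrix protein. For Gatm RNA they were Slc8a1 (r = 0.897), a sodium-calcium exchanger, and Acmsd (r = 0.890), an enzyme of tryptophan breakdown, whose own fold was 2.43. These correlations are descriptions over 24 libraries that share the time course.

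**Figure D2:**
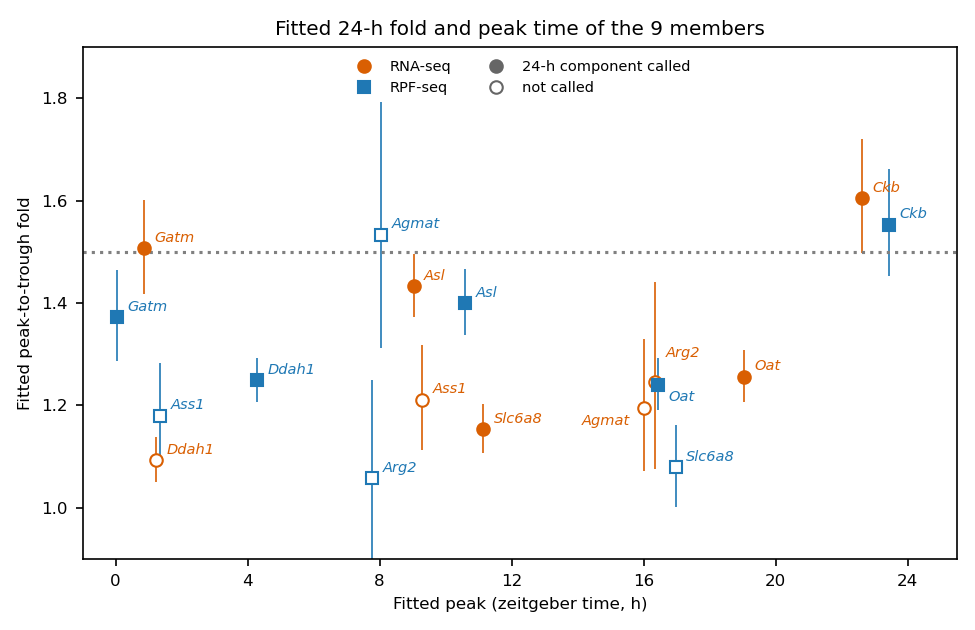
Fitted peak-to-trough fold (y axis) against fitted peak time (x axis, hours after lights-on) of each member in RNA-seq (orange circles) and RPF-seq (blue squares). Filled symbols had a 24-h component, open symbols did not, bars are 1 standard error of the fold on the log2 scale and the dotted line is 1.5-fold; the lower bar of Arg2 in RPF-seq runs off the axis. Ckb and Gatm sit around lights-on, Asl at 9.03 and 10.6 h and Oat at 19.1 and 16.4 h.

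Oat, Agmat and Arg2 had unlike profiles. Oat was highest in the dark period. Its RNA had 182.5, 207.4 and 219.9 RPKM at ZT16 to ZT20 and 158.6, 164.5 and 188.2 RPKM at ZT04 to ZT08, which overlapped slightly, and its footprints had 294.9, 325.2 and 409.4 RPKM and 255.1, 278.1 and 286.1 RPKM, which did not. The fold was 1.26 in RNA-seq with a peak at 19.1 ± 0.66 h (limma adjusted p = 0.000209) and 1.24 in RPF-seq with a peak at 16.4 ± 0.73 h (adjusted p = 0.00118). The test over timepoints in RPF-seq sat at the threshold (adjusted p = 0.0482) and was lost in 24 of 30 alternatives, with 0.193 without both ZT16 pools. A sequence related to Oat is annotated in RefSeq as well.

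Agmat had no called component, with a fold of 1.19 in RNA-seq (limma adjusted p = 0.352) and 1.53 in RPF-seq (adjusted p = 0.0944). Its replicates differed by up to 1.91-fold in RNA-seq and 3.25-fold in RPF-seq, both at ZT20, where the footprints were 2.72 and 0.838 RPKM. The RPF component was called without replicate 2 of ZT16 (limma adjusted p = 0.0483, fold 1.61) and kept by Akaike's criterion.

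Arg2 did not follow a cosine but had a peak at a single timepoint. Its RNA was 7.57 and 7.68 RPKM in the 2 ZT16 pools, and 2.49 at the lowest, 3.73 at the median and 5.47 at the highest in the other 22 libraries. Both ZT16 pools therefore lay above every other library, and their mean was 2.04 times the median elsewhere. In RPF-seq the ZT16 pools had 15.5 and 13.8 RPKM, against 4.96, 6.86 and 12.1 elsewhere, which was 2.14 times the median. The timepoint test called Arg2 in RNA-seq (limma adjusted p = 0.00949) and not in RPF-seq (adjusted p = 0.0761), where it was called without replicate 1 of ZT00 (0.0368) or of ZT14 (0.044). The cosine gave an adjusted p = 0.419 and 0.959.

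The genes most like Arg2 were looked up after its values had been seen. In RNA-seq they were Alas2 (r = 0.822), the erythroid enzyme of haem synthesis, and the alpha-globin genes Hba-a2 (r = 0.820) and Hba-a1 (r = 0.814). In RPF-seq they were Cp (r = 0.770), Snx20 (r = 0.749) and Eya2 (r = 0.740), of which Cp encodes the copper carrier ceruloplasmin. Hba-a1 RNA was 180.4 and 170.0 RPKM at ZT16, against 24.6, 42.7 and 132.4 elsewhere, 4.11 times the median. Alas2 RNA was 34.8 and 30.5 RPKM at ZT16, against 5.99, 9.28 and 33.3 elsewhere.

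Of the 5 red cell markers 4 were listed in both assays, and their sum in RNA-seq ran from 54.4 to 373.2 RPKM. The library with the highest Arg2 outside ZT16, replicate 2 of ZT00, was also the highest outside ZT16 for the listed red cell genes Hba-a1, Hba-a2, Hbb-bt and Alas2 in both assays. The timepoint test called 4 of 4 of these markers in RNA-seq (31.0% of all genes) and 3 of 4 in RPF-seq (12.8%). The cosine called 0 of 4 in each, against 48.6% and 30.9% of all genes. The summed markers of the thick ascending limb (3870 RPKM) and of collecting duct principal cells (325.7 RPKM) also had their highest RNA-seq timepoint mean at ZT16. In RPF-seq this held as well (6072 and 860.7 RPKM), and for the fat markers (388.0 RPKM). All other cell type lists that were measured were highest at other timepoints. The part of red cells or of any of these cell types in the Arg2 profile was not tested. Without both ZT16 pools Arg2 was not called in RNA-seq (limma adjusted p = 0.248), and without either of them alone the adjusted p was 0.0548 and 0.0576.

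An exon of Vti1b, on the other strand, overlaps a coding exon of Arg2, as does the antisense gene Gm48780, and the use of strand in counting is not given in the sources used here. Vti1b RNA was 103.1 and 98.3 RPKM in the ZT16 pools, against a median of 100.5 elsewhere, and so did not share the peak. In whole kidney, more cells of a type and more RNA per cell cannot be told apart.

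**Figure D3:**
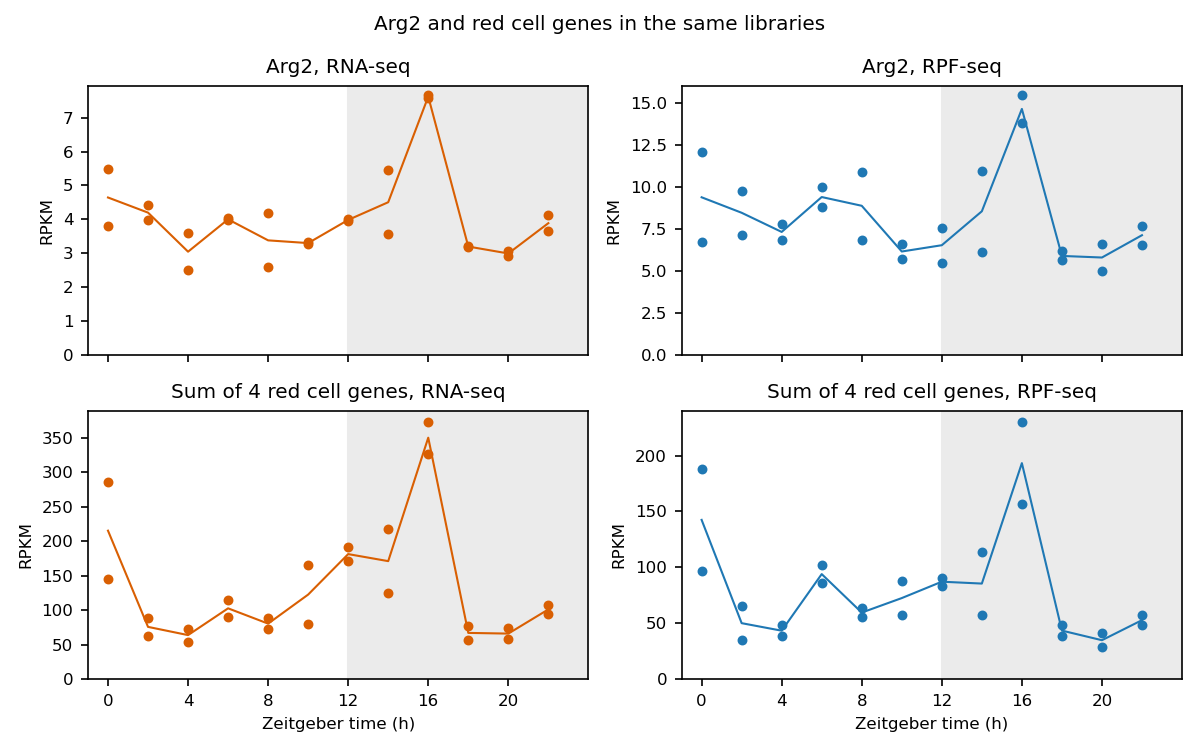
Arg2 (top) and the sum of Hba-a1, Hba-a2, Hbb-bt and Alas2 (bottom) in RPKM (y axes, linear from 0) against zeitgeber time in hours, in RNA-seq (left) and RPF-seq (right). Points are pools, lines join timepoint means and grey marks the dark period; both quantities have their highest timepoint mean at ZT16, where Arg2 RNA was 7.57 and 7.68 RPKM.

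Translation efficiency (TE), the ratio of RPF to RNA RPKM within a pool, was set against the median gene of that pool because the assays were normalised separately. In TE level 4 of the 9 members were called above the median gene and 1 below it. Arg2, Asl, Gatm and Oat lay at least 1.5-fold above the median gene, a position held by 20.6% of all genes, and Slc6a8 at least 1.5-fold below it, as did 26.0%. Per transcript, Arg2 carried 2.09 times the footprints of the median gene (log2 1.06 ± 0.05 SE, limma adjusted p = 1.85e-17), with 0.54, 1.02 and 1.70 on the log2 scale as the lowest, median and highest pool.

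Asl (1.79 times), Gatm (1.76 times) and Oat (1.76 times) were close to each other and above the median gene in 24 of 24 pools. Gatm had the narrowest spread, from 0.67 to 1.01 on the log2 scale. Ddah1 (1.30 times), Agmat (1.22 times) and Ckb (1.18 times) were above the median gene by less than the 1.5-fold threshold. Ass1 was at the median gene, with a log2 difference of 0.08 ± 0.06 SE (limma adjusted p = 0.209), above it in 15 of 24 pools.

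Slc6a8 stood alone at the other end. Its RPF to RNA ratio was 0.229 at the lowest, 0.301 at the median and 0.402 at the highest, and its log2 TE was 1.64 below that of the median gene, a 3.11-fold difference (SE 0.04, limma adjusted p = 7.81e-24). It was below the median gene in 24 of 24 pools and at percentile 5.53 of all genes. The creatine transporter thus ranked at the 89.6th percentile in RNA-seq and at the 69.9th in RPF-seq. All 5 of these calls held in each of the 8 alternatives tried.

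**Figure D4:**
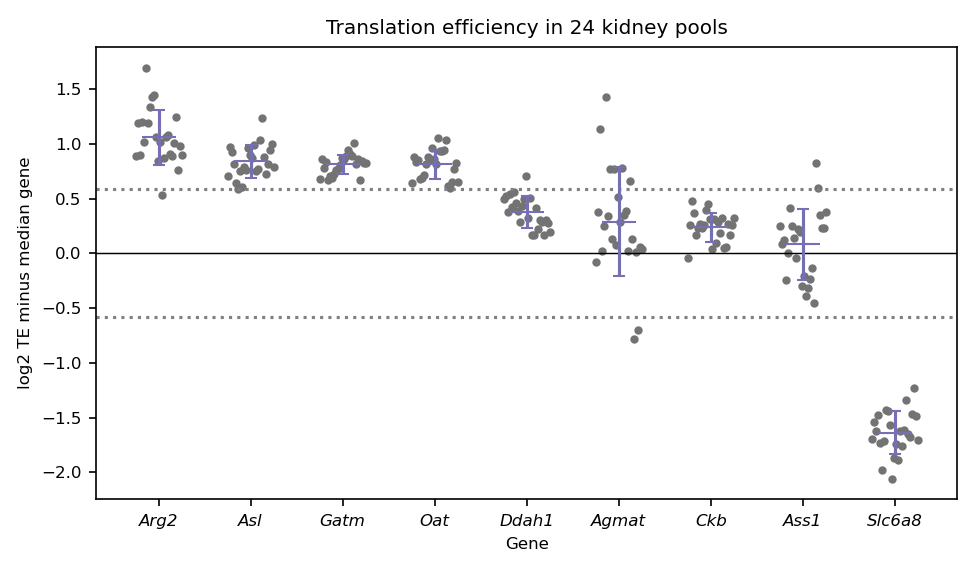
log2 TE of each member minus that of the median gene of the same pool (y axis), with genes on the x axis in order of their mean. Grey points are the 24 pools in order of time from left to right, bars the mean ± SD and dotted lines 1.5-fold above and below the median gene; Slc6a8 is below the lower line in every pool.

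No member had a 24-h component in TE by limma, against 17.1% of all genes, and none was rhythmic in TE, against 3.74%. At an unadjusted limma p under 0.05 there were 6 of 9, a count for which the share of all genes was not computed. Choosing between a cosine and a flat line by Akaike's criterion kept the cosine for 8 of 9. That criterion is lenient, as it also kept a cosine in TE for 6354 of all 11863 genes. The nearest to the threshold were Ddah1 (adjusted p = 0.0564, fold 1.19), Agmat (0.0585, fold 1.71) and Gatm (0.0659, fold 1.13). Gatm was called with the replicate number as a block (adjusted p = 0.0492) and without replicate 2 of ZT00, replicate 2 of ZT02 or replicate 1 of ZT20. Agmat was called without both ZT16 pools (adjusted p = 0.0425, fold 1.86), without replicate 1 of ZT08, replicate 1 of ZT10 or replicate 2 of ZT16, after quantile normalisation and with a minimum RPKM of 2. Arg2 was called after quantile normalisation (limma adjusted p = 0.0462) and Ass1 in the joint test with the 12-h harmonic. Ddah1 was called on leaving out any single pool of the 3 given above. Of the 4 members with a component in both assays, the fitted RPF peak lay 1.55 h after that of RNA for Asl and 0.810 h after for Ckb. It lay 0.801 h before that of RNA for Gatm and 2.61 h before for Oat. The standard errors of these peak times ran from 0.46 to 0.78 h, and the gaps for Ckb and Gatm were close to the largest of them. The gaps were not tested.

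The wider pathway was followed in a list of 36 other genes of urea cycle, creatine, nitric oxide, proline and polyamine metabolism and of arginine transport, of which 25 could be tested. A 24-h component was found in 11 of 25 in RNA-seq (44.0%, against 48.6% of all genes), 11 of 25 in RPF-seq (44.0%, against 30.9%) and 6 of 25 in TE (24.0%, against 17.1%), and the median folds were 1.21, 1.24 and 1.19. The only list gene rhythmic at 1.5-fold was Slc7a9, the light subunit of the luminal transporter for cystine and dibasic amino acids. It had 71.7, 97.8 and 132.1 RPKM in RPF-seq, with a fold of 1.59 and a peak at 13.1 h (limma adjusted p = 3.52e-08), and a fold of 1.35 in RNA-seq.

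Its partner Slc3a1, the heavy subunit, was the most abundant of the 25 in RPF-seq, with 679.0, 844.6 and 935.1 RPKM and a fold of 1.03 (limma adjusted p = 0.813). Among the 25 tested genes the lowest was Nos3, the endothelial nitric oxide synthase, with 1.21, 1.57 and 2.64 RPKM. In TE level, 6 of 25 list genes were at least 1.5-fold above the median gene, against 20.6% of all genes, and 2 below, against 26.0%, namely Odc1 (log2 2.31 below, limma) and Azin1 (log2 1.04 below). These are ornithine decarboxylase and the inhibitor of its antizyme, which stand on the polyamine branch from ornithine and were named after their values were seen.

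Markers of segments and cell types were tested in the same libraries. A 24-h component in RNA-seq, which 48.6% of all genes had, was found in 3 of 5 markers of the convoluted and 2 of 5 of the straight proximal tubule, 4 of 4 of the thick ascending limb, 3 of 3 of the distal convoluted tubule and 4 of 4 of collecting duct principal cells. The same held for 1 of 4 intercalated, 3 of 4 podocyte, 4 of 4 endothelial, 1 of 4 immune and 3 of 4 smooth muscle and mesangial markers, and for 2 of 3 fat and 2 of 4 liver markers. In RPF-seq, against 30.9% of all genes, the counts in the same order were 2 of 5, 1 of 5, 3 of 4, 1 of 3, 4 of 4, 0 of 4, 1 of 4, 3 of 4, 0 of 4, 2 of 4, 2 of 3 and 1 of 4. The 4 adrenal markers were not among the genes analysed here. By timepoint mean, summed RNA was lowest at ZT10 for the convoluted proximal tubule (4430 RPKM) and thick ascending limb markers (2975 RPKM). The same held for smooth muscle and mesangial (81.5 RPKM) and liver markers (248.4 RPKM). The minimum was at ZT02 for distal convoluted tubule and immune, ZT04 for red cell and ZT08 for straight tubule and fat markers. It was at ZT12 for podocyte, ZT14 for endothelial, ZT16 for intercalated and ZT22 for collecting duct markers (209.6 RPKM). In RPF-seq it was at ZT04 for thick ascending limb and ZT12 for smooth muscle and mesangial markers. Of the members, Ckb (94.6 RPKM), Oat (158.7 RPKM) and Ddah1 (192.5 RPKM) had their lowest RNA at ZT10. The part of cell composition in the members' profiles was not tested.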

How the data were processed

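Kidney RNA-seq (total RNA, rRNA-depleted) and RPF-seq were measured in 24 lysate pools, 48 libraries. Per the labels and the study's methods, the authors trimmed reads with cutadapt, filtered them by length, aligned with Bowtie2 2.2.1 and TopHat2 2.0.11 to GRCm38.p2 (Ensembl 75), used Cufflinks 2.2.1, counted on coding sequences, scaled by an upper quantile with edgeR and deposited RPKM, leaving out lowly expressed genes. From these, log2(RPKM + 0.1) was computed for the 11863 genes whose median reached 0.5 RPKM in each assay, and limma 3.58.1 (R 4.3.3) fitted the cosine, timepoint and TE models, with Benjamini-Hochberg adjustment over all genes. Fold changes are on this log2 scale, which understates changes of low genes. The study's methods describe 2 daily cycles, but the labels do not say what the replicate numbers mark, so p-values measure the spread between these pools. Whole reads were recovered for 99.9% of genes (within 0.05 reads). The fits were tested on simulated data. Members, lists and tests were chosen with earlier results of these data known. All 9 members are named, as are pathway genes that were rhythmic or highest or lowest in RPF-seq, and the 2 genes most correlated with each rhythmic member. Windows of 6 libraries cover 3 timepoints each. The pair of windows shown differs between genes and sets a high window beside a low one. Whether the pair overlapped is therefore a description of these values and not a test. Python 3.11.15 and scipy 1.17.1 were used.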

Additional observations from a re-analysis of the deposited data

How the results depend on the processing

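Of 1638 member values recomputed under other settings, 1556 stayed on their side of the threshold, 43 fell behind it, 39 passed it and 0 reversed. Only cosine and TE level values that were called with all pools could count as reversed. Most settings left out a single pool of the 24 and so shared nearly all their data with the main fit. Members with a 24-h component numbered 3 to 6 in RNA-seq and 0 to 6 in RPF-seq over fits leaving out 1 pool or 1 replicate number (5 in each with all pools); the lowest came without replicate 1, which leaves 12 libraries. Members past 1.5-fold numbered 1 to 2 in RNA-seq and 0 to 2 in RPF-seq over the same fits. In RNA-seq they were 1 after quantile normalisation or median-of-ratios scaling (Gatm lost) and without both ZT10 pools (Ckb lost), and in RPF-seq 2 by Akaike's criterion and 0 without both ZT10 pools. In TE, with 0 members called, 0 to 2 were called over fits leaving out pools (0 to 1 past 1.5-fold). There were 1 with a minimum RPKM of 2, 2 after quantile normalisation, 8 by Akaike's criterion and 1 without both ZT16 pools. Of these, 1 was past 1.5-fold in each setting. The replicate block gave 1, under 1.5-fold. With a 12-h harmonic added, the joint test of the 24-h and 12-h terms gave 1, past 1.5-fold. Deviations of equal replicate numbers had a median r of 0.00697 in RNA-seq (from -0.18 to 0.48) over 66 pairs of timepoints. In RPF-seq the median r was 0.0386 (from -0.20 to 0.19). The medians show no general shared deviation, but the highest RNA-seq value shows that some timepoints did share one. The labels do not say what the replicate numbers mark, so whether the block pairs anything was not settled. Over all genes, fits leaving out pools gave 1200 to 6294 (RNA-seq), 460 to 3765 (RPF-seq) and 0 to 2299 (TE) with a component, and 722 to 1430, 370 to 956 and 0 to 478 rhythmic. Akaike's criterion gave 7090 (RPF-seq) and 6354 (TE), with 727 rhythmic in TE, the unpaired interaction 964 in TE, and a pseudocount of 1 gave 781 and 590 rhythmic in RNA-seq and RPF-seq. The timepoint test gave 2 to 4 members and 1084 to 2417 genes in RPF-seq leaving out pools. The ZT10 and ZT16 exclusions and precision weights were chosen after seeing the data. Depth limits Arg2 and Agmat.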

Other observations

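Among the pathway list, 6 genes had a 24-h component in TE, and they were named after their values were seen. Of the heavy subunits of amino acid transporters, Slc3a1 had a TE fold of 1.25 with a peak at 6.34 h (limma adjusted p = 0.00184), while its RNA peaked at 18.6 h and its RPF had a fold of 1.03. Slc3a2 had a TE fold of 1.19 with a peak at 21.9 h (limma adjusted p = 0.0169). The light subunit Slc7a9 had a TE fold of 1.23 with a peak at 15.1 h (limma adjusted p = 0.00553). Sat1, which acetylates polyamines, had a TE fold of 1.37 with a peak at 8.92 h (limma adjusted p = 0.012). Aldh4a1, of proline breakdown, and Slc25a13, the mitochondrial aspartate-glutamate carrier, had TE folds of 1.18 and 1.15 (limma adjusted p = 0.0241 and 0.0301).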
